A study of Drosophila melanogaster with 31 samples.

Results

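The Hippo pathway genes and Yorkie targets followed here are yki, sd, hpo, wts, ex, kibra, Mer, ft, ds and fj, 10 genes chosen by name and found through the FlyBase identifiers of the count table. Of the 10, 9 were in the table and all 9 passed the filter on low counts, among 17559 genes in all and 13524 genes tested. ds, which encodes the large cadherin that binds Fat, was not analysed here: its identifier in the annotation matched no row, and 306 genes of the table, with 7.24% to 9.41% of the counts, were not matched to a name. The RNA came from single clones of about 50 cells that were cut by laser from the Drosophila larval eye imaginal disc, the epithelium that forms the adult eye. The groups, each on nutrient restriction (NR) and on normal food, were Tsc1 mutant clones with foxo knockdown (Tsc1 foxoRi), Tsc1 mutant clones (Tsc1), wild-type clones with foxo knockdown (foxoRi) and isogenic wild-type clones (wt). Tsc1 clones carried the Tsc1Q87X allele, which leaves tissue without Tsc1, an inhibitor of the growth kinase complex mTORC1. The NR larvae were dissected at a later age than the normal food larvae, so food and age cannot be told apart. The knockdown larvae were kept at 30 °C for the last 12 hr and the others at 25 °C, so knockdown and temperature cannot be told apart either. All clones were made by mitotic recombination on chromosome arm 3R, which also carries wts and kibra. For these and any other genes on that arm, linked alleles of the Tsc1 chromosome and the loss of Tsc1 cannot be told apart.

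In the Hippo pathway, the kinase Hippo activates the kinase Warts, and Warts phosphorylates the coactivator Yorkie and keeps it out of the nucleus. Free Yorkie joins the DNA-binding protein Scalloped and turns on genes for growth and survival. Expanded, Merlin and Kibra act upstream of the kinases at the apical cell cortex, and the cadherin Fat acts from the membrane. Four-jointed, a Golgi kinase, modifies Fat and Dachsous. In imaginal discs ex, kibra and fj are also switched on by Yorkie, so that their transcripts are widely used as readouts of its activity. Much of the control of Yorkie is by phosphorylation and location of the protein, which RNA counts do not measure.

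The comparisons were made on 29 of 31 libraries, with 2 to 4 libraries a group. The 2 left out had the fewest genes with a count, namely foxoRi replicate 3 under NR and wt replicate 4 on normal food. The 29 held 6877877 to 13316136 counts and 9536 to 15173 genes with a count, and ribosomal RNA took 27.3% to 55.9% of the counts. foxo RNA averaged 38.3 ± 14.4 CPM in knockdown clones and 38.6 ± 13.4 CPM in clones without knockdown (SD, n = 14 and 15), so the RNA did not check the knockdown label, and foxoRi below names a library by its label. Tsc1Q87X is a point mutation, so the level of Tsc1 RNA checks nothing. Eye progenitor markers (ey, toy, so, eya, hth, tsh, Optix and dac) summed to 982 to 2665 CPM in the 29 libraries. Markers of the furrow and photoreceptors ranged from 36.8 to 1292 CPM, antenna markers from 0.611 to 440 CPM, fat body markers from 0.414 to 2760 CPM, and salivary gland markers from 0 to 540 CPM. In bulk clones, fewer cells of a type and less RNA per cell cannot be told apart.

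Per kilobase of exon, fj and ex were the most abundant members, with means of 41.9 ± 21.3 and 36.8 ± 19.1 CPM per kb (SD, n = 29). yki followed at 26.8 ± 11.3 and ft at 25.7 ± 4.18 CPM per kb. sd had 17.0 ± 3.53 and hpo had 14.2 ± 3.23 CPM per kb. Mer, wts and kibra were the lowest, with 7.02 ± 1.98, 6.41 ± 1.74 and 3.54 ± 1.61 CPM per kb. Neighbours in this order lay within 1 SD of each other, except for the steps between ft and sd, between hpo and Mer, and between wts and kibra. The members with the highest levels per kb also spread the most between clones of one group. The within-group SD of log2(CPM + 2) was 0.72 for fj, 0.68 for ex and 0.52 for yki, against 0.20 for ft, and of the tested genes of like level 92.3% spread less than fj and 92.9% less than ex. ft was among the steadiest genes of its level, with 4.64% of them spreading less.

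**Figure D1:**
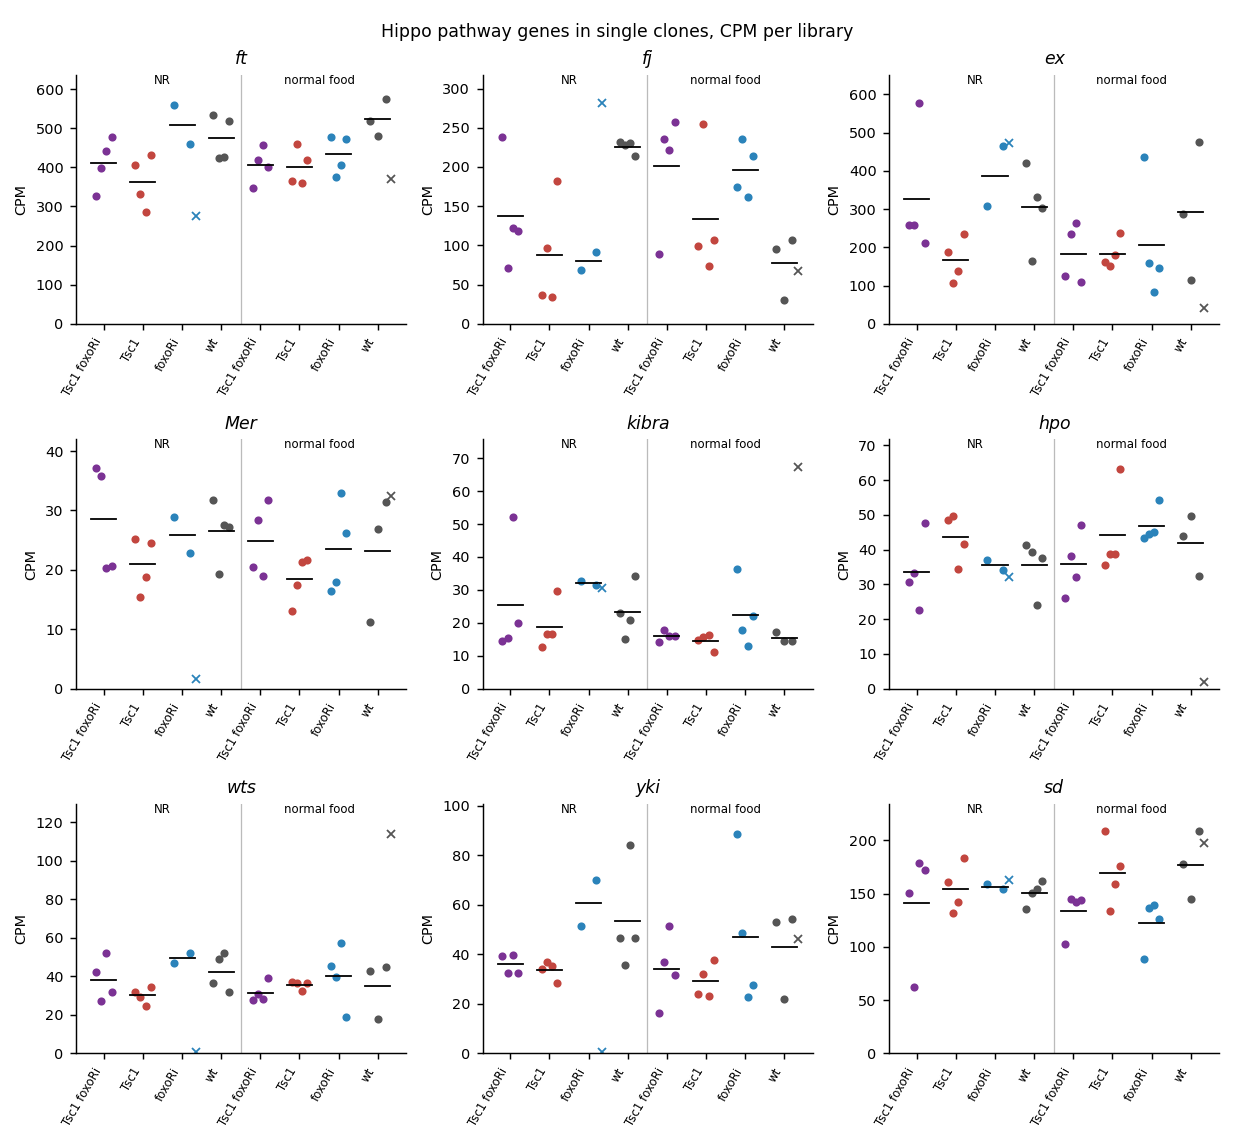
CPM of the 9 members in each library, by group, with NR on the left and normal food on the right of each panel; points are libraries used in the tests, black lines their means, and crosses the 2 libraries left out. The fj values of the 4 wt clones under NR lie between 214 and 232 CPM, above the wt clones on normal food, while ft varies little between groups.

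A call needed 2 things, an absolute log2 FC over 0.8 and an adjusted p under 0.2 (edgeR's quasi-likelihood test, Benjamini-Hochberg adjustment over the 13524 genes). No member was called in any of the 18 comparisons. The share of all tested genes called was 7.51% for the averaged Tsc1 effect, 0.104% for the averaged NR effect and 0.902% for the averaged knockdown effect. For Tsc1 against wt it was 0.665% under NR and 1.21% on normal food, and for Tsc1 foxoRi against foxoRi it was 1.18% under NR and 0.791% on normal food. For NR against normal food it was 0.0444% in Tsc1, 1.55% in Tsc1 foxoRi, and 0% in wt and in foxoRi clones. For Tsc1 foxoRi against Tsc1 it was 0.873% under NR and 0.0592% on normal food, and for foxoRi against wt it was 0% under NR and 0.0813% on normal food. For the differences between effects it was 2.44% for the Tsc1 effect between foods, and 0% for the knockdown effect between genotypes and between foods. Of the 162 member values, 14 had an unadjusted p under 0.05. The share of all tested genes with such a p ran from 3.68% for foxoRi against wt under NR to 19.2% for the averaged Tsc1 effect. The SE of a pairwise log2 FC ran from 0.17 for ft to 0.60 for fj.

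**Figure D2:**
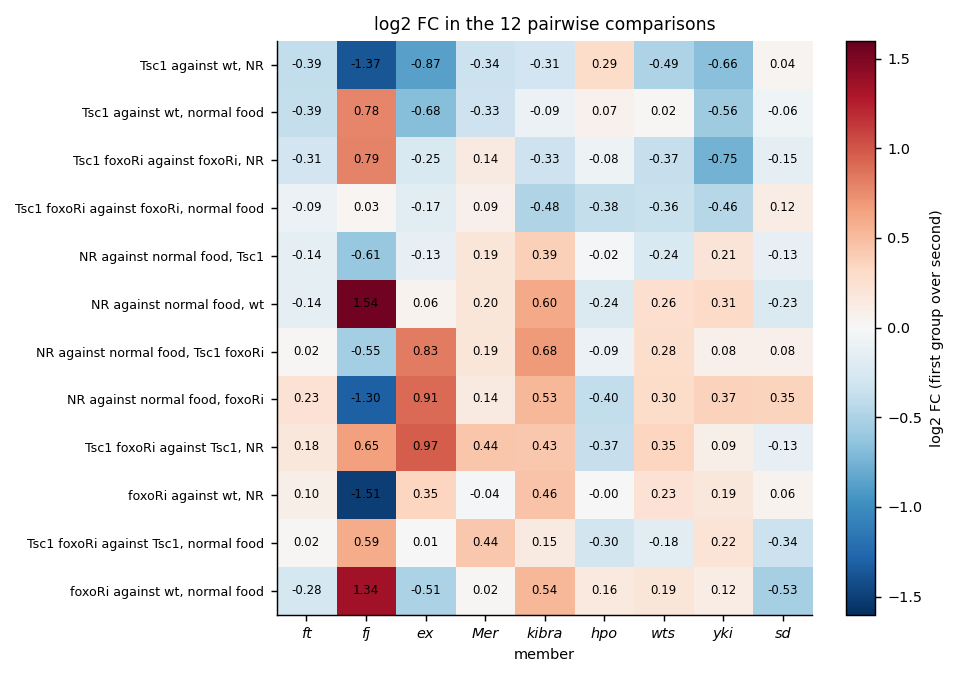
log2 FC of the 9 members (columns) in the 12 pairwise comparisons (rows), first group over second, from the edgeR fit. The values of fj run from -1.51 to 1.54, and yki, ft, ex and kibra are below 0 in all 4 comparisons of Tsc1 with its control.

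The first question was whether loss of Tsc1 changed the pathway's transcripts. Averaged over both foods and both knockdown states, 8 of the 9 members had a log2 FC below 0 in Tsc1 clones, with a median of -0.29, while the median of all tested genes was 0.15 and 61.4% of them were above 0. For 3 members, yki, ft and ex, the unadjusted p was under 0.05, each lower in Tsc1 clones, against 6.52% of all genes with such a p and a lower level. At an adjusted p under 0.2 with no minimum fold, a threshold added after seeing the data, yki and ft passed, against 5.35% of all genes that passed in that direction. With all 31 libraries neither passed (edgeR adjusted p = 0.464 for yki and 0.388 for ft), and ft did not pass without foxoRi replicate 1 under NR (edgeR adjusted p = 0.209).

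yki, the coactivator itself (2R, 24065975 to 24068485, minus strand), had a log2 FC of -0.61 (SE 0.19, edgeR adjusted p = 0.0582). Under NR, yki had 34.2, 37.1, 35.3 and 28.4 CPM in Tsc1 clones, against 46.8, 35.8, 84.2 and 46.8 CPM in wt clones. The Tsc1 clones lay close together and overlapped with 1 wt clone. In knockdown clones under NR it had 39.2, 32.6, 39.9 and 32.5 CPM with Tsc1 mutant and 51.4 and 70.0 CPM without. These groups did not overlap (log2 FC -0.75, SE 0.43, unadjusted p = 0.0908, exact permutation p = 0.0667, 2-sided, the smallest that 4 against 2 allow), as was so for 18.5% of all genes in that comparison. The foxoRi clone left out for its few genes had 0.678 CPM of yki, below every Tsc1 foxoRi clone. On normal food yki had 24.2, 32.0, 23.1 and 37.6 CPM in Tsc1 clones, against 53.2, 21.9 and 54.4 CPM in wt clones, and the groups overlapped through 1 wt clone. In knockdown clones on normal food the ranges overlapped widely, from 16.4 to 51.5 CPM in Tsc1 foxoRi clones and from 22.8 to 88.8 CPM in foxoRi clones.

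ft, the cadherin upstream of the kinases (2L, 4198404 to 4221796, minus strand), was lower in Tsc1 clones by a small amount, with a log2 FC of -0.29 (SE 0.09, edgeR adjusted p = 0.0532). On normal food it had 365, 461, 360 and 419 CPM in Tsc1 clones, against 517, 481 and 575 CPM in wt clones. Every Tsc1 clone lay below every wt clone used (log2 FC -0.39, SE 0.18, unadjusted p = 0.0434, exact permutation p = 0.0571, 2-sided), and 7.5% of all genes did not overlap in that comparison. The wt clone left out for its few genes had 369 CPM, inside the Tsc1 range. Under NR ft had 405, 331, 285 and 432 CPM in Tsc1 clones, against 534, 423, 426 and 518 CPM in wt clones, and the groups overlapped.

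ex, a target of Yorkie and an inhibitor of it (2L, 431227 to 448701, plus strand), averaged a log2 FC of -0.49 in Tsc1 clones (SE 0.23, unadjusted p = 0.0420, edgeR adjusted p = 0.237). Under NR ex had 187, 106, 138 and 235 CPM in Tsc1 clones, against 421, 164, 331 and 304 CPM in wt clones. The lowest wt clone lay inside the Tsc1 range. Under NR, ex had 259, 259, 577 and 210 CPM in Tsc1 foxoRi clones, against the Tsc1 values above, a log2 FC of 0.97 (SE 0.44, unadjusted p = 0.0339, edgeR adjusted p = 0.728). The groups overlapped, and without the 577 CPM library the log2 FC was 0.55. 448 bases of ex exons, 6.71% of their length, overlap crq on the other strand, and whether the counting used strand is not given in the sources used here.

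wts, the kinase that phosphorylates Yorkie (3R, 30789625 to 30806619, minus strand), had an averaged log2 FC of -0.30 (SE 0.15, unadjusted p = 0.0598). kibra (3R, 14697689 to 14724261, minus strand) had an averaged log2 FC of -0.30 (SE 0.19, unadjusted p = 0.132). Mer, the fly Merlin (X, 19689697 to 19693500, minus strand), had -0.11 (SE 0.17). The kinase gene hpo (2R, 19493996 to 19496856, minus strand) had -0.02 (SE 0.13) and sd, which encodes Yorkie's partner on DNA (X, 15804370 to 15827682, plus strand), had -0.01 (SE 0.13). hpo shares 130 exon bases, 4.64% of its length, with Rep on the other strand. For hpo, sd and Mer the averaged values are smaller than their SE. The plot of the averaged effect shows how the members stood to the other Yorkie targets.

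**Figure D3:**
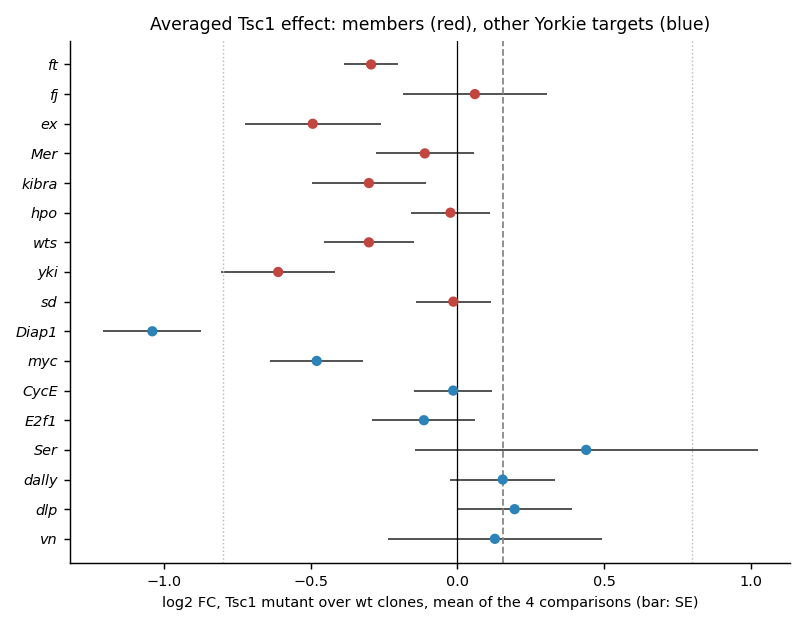
Averaged Tsc1 log2 FC with its SE for the 9 members (red) and 8 other Yorkie targets (blue); the dashed line is the median of all genes, 0.15, and the dotted lines are the fold threshold. Diap1, at -1.04, is the one gene shown that lies past the threshold, and yki, at -0.61, is the lowest of the members.

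fj was the member with the largest pairwise changes, and they ran in opposite directions in different groups. fj (2R, 18232761 to 18236311, plus strand, a single exon) had 232, 228, 230 and 214 CPM in wt clones under NR, against 94.9, 29.8 and 107 CPM in wt clones on normal food. Every NR clone lay above every normal food clone (log2 FC 1.54, SE 0.52, unadjusted p = 0.00553, edgeR adjusted p = 0.868, exact permutation p = 0.0286, 2-sided, the smallest that 4 against 3 allow), and 4.28% of all genes did not overlap in that comparison.

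In Tsc1 clones under NR, fj had 37.0, 97.0, 33.5 and 183 CPM, against the wt NR values of 214 to 232 CPM. All 4 Tsc1 clones were below all 4 wt clones (log2 FC -1.37, SE 0.46, unadjusted p = 0.00622, edgeR adjusted p = 0.353, exact permutation p = 0.0286, 2-sided), as was so in either direction for 5.95% of all genes. Without the Tsc1 clone with 183 CPM, fj was called, with a log2 FC of -2.02 and an edgeR adjusted p = 0.108. On normal food fj had 98.9, 254, 73.5 and 106 CPM in Tsc1 clones, overlapping with wt (log2 FC 0.78, SE 0.50, unadjusted p = 0.129). The difference of the Tsc1 effect between NR and normal food in clones without knockdown was -2.15 on the log2 scale (SE 0.69, unadjusted p = 0.00388, edgeR adjusted p = 0.423), against 0.118% of all genes called. In knockdown clones the same difference was 0.76 (SE 0.73, unadjusted p = 0.308, edgeR adjusted p = 0.764), and 0% of genes were called.

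The 2 foxoRi clones used under NR had 68.0 and 91.1 CPM of fj, below the 4 wt NR clones (log2 FC -1.51, SE 0.60, unadjusted p = 0.0179, edgeR adjusted p = 0.895, exact permutation p = 0.0667, 2-sided), and 12% of all genes did not overlap there. The foxoRi clone left out for its few genes had 282 CPM, above all wt clones. On normal food foxoRi clones had 174, 235, 162 and 214 CPM of fj, above the 3 wt clones used (log2 FC 1.34, SE 0.51, unadjusted p = 0.0137, edgeR adjusted p = 0.500, exact permutation p = 0.0286, 2-sided), and 6.51% of all genes did not overlap. The NR foxoRi clones also lay below the normal food ones (log2 FC -1.30, SE 0.59, unadjusted p = 0.0362, exact permutation p = 0.0667, 2-sided), and 9.49% of all genes did not overlap there. In the wt background the knockdown effect on fj differed between NR and normal food by -2.85 on the log2 scale (SE 0.79, unadjusted p = 0.00117, edgeR adjusted p = 0.720, 0% of genes called), and in the Tsc1 background by 0.06 (SE 0.64, unadjusted p = 0.928, 0% called). These within-background differences were added after seeing the data, and the comparisons share libraries, the wt NR clones above all.

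In Tsc1 foxoRi clones fj had 238, 70.7, 123 and 118 CPM under NR, against 89.1, 235, 221 and 258 CPM on normal food, with overlap. Furrow and photoreceptor markers summed to 67.3 to 875 CPM in wt NR clones, where fj was even, and to 36.8 to 948 CPM in Tsc1 NR clones, where it was not. On normal food, where fj was higher in foxoRi clones, these markers summed to 333 to 1223 CPM in foxoRi clones and 63.4 to 260 CPM in wt clones. Antenna markers there summed to 151 to 305 CPM in foxoRi clones and 0.611 to 167 CPM in wt clones. Under NR fj was lower in foxoRi clones. There antenna markers summed to 258 to 440 CPM in foxoRi clones and 100 to 315 CPM in wt clones. Furrow and photoreceptor markers summed to 586 to 734 CPM in these foxoRi clones. Over the 29 libraries, after removal of the group means, fj and the antenna sum had a Pearson's r of 0.58 (permutation p = 0.0125, adjusted p = 0.243 over 54 relations), a Spearman's rho of 0.51 (permutation p = 0.0242, adjusted p = 0.264), and an r of 0.51 without the 2 farthest libraries. fj was not alone in this. The antenna sum had an r of 0.62 with wts (permutation p = 0.00683) and of 0.49 with sd (permutation p = 0.0180), each at an adjusted p = 0.243. The part of furrow, photoreceptor and antenna cells in the differences of fj between groups was not tested.

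kibra was the member with the smallest p for the averaged NR effect, with a log2 FC of 0.55 (SE 0.20, unadjusted p = 0.00879, edgeR adjusted p = 0.481), and 4.88% of all genes had an unadjusted p under 0.05 and a higher level under NR. It had 12.5, 16.7, 16.5 and 29.6 CPM in Tsc1 clones under NR, against 14.7, 15.6, 16.3 and 11.0 CPM on normal food. In wt clones it had 23.0, 14.9, 20.9 and 34.4 CPM under NR, against 17.1, 14.4 and 14.5 CPM on normal food. Groups overlapped in all 4 pairs of foods, and 1 Tsc1 foxoRi clone under NR stood out with 52.1 CPM. The same clone had the 577 CPM of ex and the highest fat body marker sum of the 29 libraries, 2760 CPM. Among Tsc1 clones under NR, the one with 16.5 CPM of kibra had 753 CPM of fat body markers. The one with 29.6 CPM of kibra had 393 CPM of them. The part of fat body cells in the kibra and ex values was not tested.

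The knockdown, together with the shift to 30 °C, left no member with an unadjusted p under 0.05 when averaged over genotype and food. sd had an averaged log2 FC of -0.24 (SE 0.13, unadjusted p = 0.0730). On normal food sd had 88.9, 136, 139 and 126 CPM in foxoRi clones, against 178, 145 and 209 CPM in wt clones. These did not overlap, as was so for 6.51% of all genes (log2 FC -0.53, SE 0.25, unadjusted p = 0.0455, edgeR adjusted p = 0.540, exact permutation p = 0.0286, 2-sided). ft was also lower without overlap there (exact permutation p = 0.114, 2-sided), but the wt clone left out had 369 CPM, below every foxoRi clone. In foxoRi clones, NR against normal food gave no overlap for sd, higher under NR, and for hpo, lower under NR, with unadjusted p = 0.230 and 0.208, against 9.49% of all genes without overlap.

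Of 36 other pathway components, all 36 were tested, and 1 was called in each of 2 comparisons, Tsc1 against wt on normal food, where 1.21% of all genes were called, and Tsc1 foxoRi against foxoRi under NR, where 1.18% were. In the averaged Tsc1 effect none was called, 28 were below 0 and 8 above, with a median of -0.13, and 9 had an unadjusted p under 0.05, 4 of them higher and 5 lower, against 19.2% of all genes. The core scaffold genes sav and mats had averaged log2 FCs of -0.09 (SE 0.21) and -0.10 (SE 0.18), and jub, an inhibitor of Warts, had -0.07 (SE 0.14). d, the myosin Dachs that acts downstream of Fat, had -0.14 (SE 0.18).

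hth, the homeobox gene of eye progenitors that can partner Yorkie, was called lower on normal food in Tsc1 than in wt clones, at a log2 FC of -2.93 (SE 0.82, edgeR adjusted p = 0.147). It had 69.8, 79.5, 95.6 and 84.0 CPM in Tsc1 clones, against 393, 710 and 777 CPM in wt clones. The Tsc1 clones were all low and did not overlap with wt. hth is 1 of the 8 eye progenitor markers and counts in their sum. That sum was 1874 to 2084 CPM in these Tsc1 clones and 1387 to 2023 CPM in these wt clones. In the wt clone with 1387 CPM, hth alone made up 710 CPM. Antenna markers summed to 149 to 267 CPM in these Tsc1 clones and 0.611 to 167 CPM in these wt clones. The part of the cell types cut in the hth values was not tested. The call was lost without any one of the 4 Tsc1 clones or without wt replicate 2 or 3 (edgeR adjusted p 0.265 to 0.420). Of the 4 pairs of a Tsc1 group with its control, hth was lower in 1, with log2 FCs from -2.93 to 1.75. Under NR hth ranged from 26.1 to 591 CPM in Tsc1 clones and from 37.1 to 1052 CPM in wt clones. Tsc1 foxoRi clones under NR had 108 to 458 CPM, above the 78.6 and 87.5 CPM of the foxoRi clones used. In that comparison 18.5% of all genes did not overlap, and the foxoRi clone left out had 2522 CPM of hth. Hipk, a kinase that promotes Yorkie activity, was called lower in Tsc1 foxoRi than in foxoRi clones under NR, with 207, 158, 140 and 211 CPM against 366 and 281 CPM (log2 FC -0.85, SE 0.24, edgeR adjusted p = 0.150). Furrow and photoreceptor markers summed to 48.4 to 167 CPM in these Tsc1 foxoRi clones and to 586 to 734 CPM in these foxoRi clones, and their part in the Hipk values was not tested. That call was lost without either foxoRi clone and without replicate 2 or 3 of Tsc1 foxoRi (edgeR adjusted p 0.230 to 0.621).

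Of 10 other Yorkie targets, 8 were tested; ban, whose hairpin had too few counts, did not pass the filter, and wg was not analysed here. Diap1, the inhibitor of apoptosis that is a classical Yorkie target, fell in Tsc1 clones. It averaged 37.3 ± 14.4 CPM in Tsc1 clones and 74.4 ± 19.4 CPM in clones without the mutation (SD, n = 16 and 13), with an averaged log2 FC of -1.04 (SE 0.17, edgeR adjusted p = 0.000246), against 1.86% of all genes called lower. Its mean was lower in each of the 4 pairs, with log2 FCs from -1.78 to -0.61. Single clones overlapped in the pair without knockdown under NR and in the knockdown pair on normal food. Under NR, fat body markers reached 2760 CPM in Tsc1 foxoRi and 753 CPM in Tsc1 clones, against 15.5 CPM in foxoRi and 57.8 CPM in wt clones. On normal food they stayed at or under 23.1 CPM in all groups. The part of fat body cells in the Diap1 values was not tested, nor was that of furrow and photoreceptor cells in the averaged effect.

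Under NR Diap1 had 20.5, 27.7, 13.5 and 36.9 CPM in Tsc1 foxoRi clones, against 77.7 and 92.3 CPM in foxoRi clones (log2 FC -1.78, SE 0.37, edgeR adjusted p = 0.0417). All 4 mutant clones were below both foxoRi clones used, and above the foxoRi clone left out, which had 10.8 CPM. The furrow and photoreceptor sums of these groups, given beside Hipk, did not overlap either, and their part in the Diap1 values was not tested. The median log2 FC of all genes in that comparison was 0.47. This call rested on 2 foxoRi clones, and without either of them the edgeR adjusted p was 0.332 or 0.414. Between the mutant groups under NR, Tsc1 foxoRi against Tsc1, the log2 FC was -0.95 (SE 0.32, unadjusted p = 0.00554, edgeR adjusted p = 0.408). Without knockdown under NR Diap1 had 40.1, 72.7, 34.7 and 42.7 CPM in Tsc1 clones, against 95.6, 83.2, 40.4 and 70.7 CPM in wt clones, with overlap. The Tsc1 clone with 72.7 CPM was the one with 948 CPM of furrow and photoreceptor markers, against 36.8 to 73.1 CPM in the other 3. In the wt clones, in the order of their Diap1 values above, these markers summed to 67.3, 875, 125 and 612 CPM. On normal food Diap1 had 29.5, 38.7, 35.9 and 47.1 CPM in Tsc1 clones, against 77.8, 55.5 and 57.2 CPM in the wt clones used. Every mutant clone was lower than these wt clones (exact permutation p = 0.0571, 2-sided). The wt clone left out for its few genes had 35.9 CPM, inside the Tsc1 range. In knockdown clones on normal food Diap1 ranged from 25.1 to 60.5 CPM in Tsc1 foxoRi and from 58.97 to 111 CPM in foxoRi clones, with overlap. Furrow and photoreceptor markers there summed to 59.3 to 332.95 CPM in Tsc1 foxoRi and 333.48 to 1223 CPM in foxoRi clones, without overlap. Their part in these Diap1 values was not tested.

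myc, the growth transcription factor, was called lower on normal food in Tsc1 than in wt clones, at a log2 FC of -1.10 (SE 0.32, edgeR adjusted p = 0.162). It had 286, 190, 172 and 127 CPM in Tsc1 clones, against 328, 388 and 534 CPM in the wt clones used, without overlap. The wt clone left out for its few genes had 95.8 CPM, below every Tsc1 clone. The call was lost in 16 of 38 alternatives, among them without replicate 2, 3 or 4 of Tsc1 and without replicate 2 or 3 of wt on normal food (edgeR adjusted p 0.303 to 0.481). In the averaged effect myc had a log2 FC of -0.48 (SE 0.16, edgeR adjusted p = 0.0713), under the fold threshold. CycE, the G1/S cyclin, had an averaged log2 FC of -0.01 (SE 0.13). Of the 8 targets tested 4 were below 0 and 4 above, with a median of 0.06, against 0.15 for all genes.

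**Figure D4:**
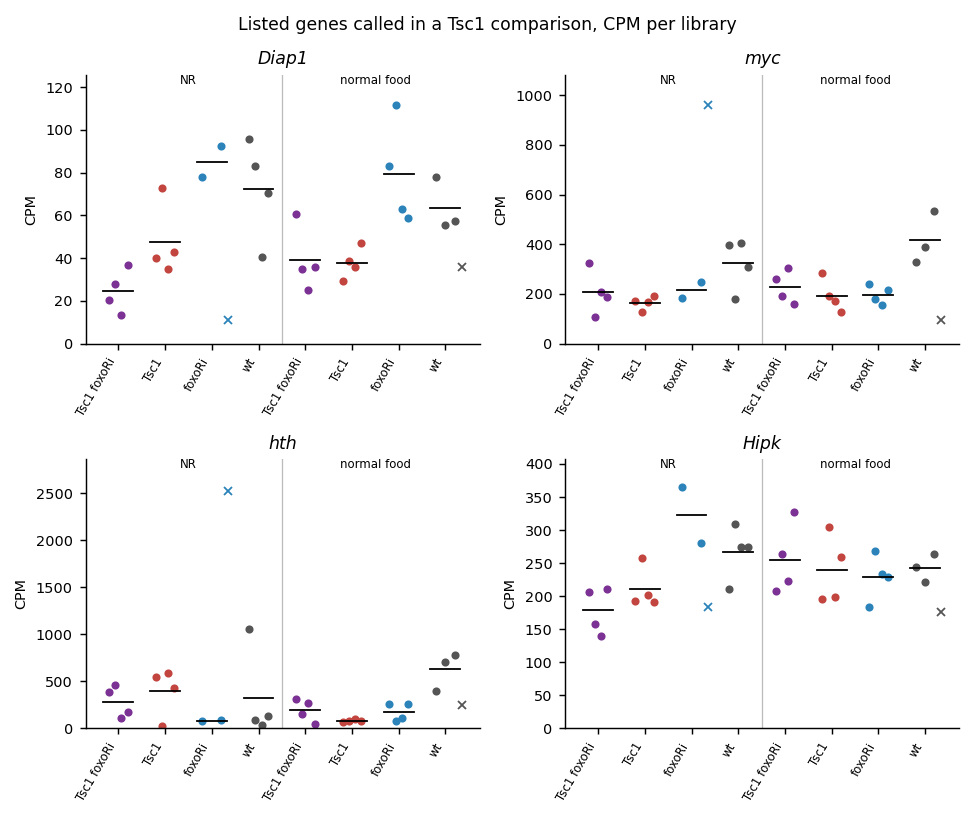
CPM per library of the 4 listed genes called in a comparison with a Tsc1 group, laid out as in the plot of the members, with crosses for the libraries left out. Diap1 lies at 13.5 to 36.9 CPM in Tsc1 foxoRi clones under NR and at 77.7 and 92.3 CPM in foxoRi clones.

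Among 36 pairs of members, yki and ex varied together between clones of the same group. After removal of the group means over 29 libraries, Pearson's r was 0.73 (permutation p = 0.00084, adjusted p = 0.0302) and Spearman's rho was 0.64 (permutation p = 0.00219, adjusted p = 0.0788). Without the 2 libraries farthest from the median of yki, r was 0.66. With all 31 libraries r was 0.24 (permutation p = 0.131), so the relation depended on leaving out the 2 libraries with the fewest genes. ex and kibra had r of 0.59 (permutation p = 0.00472, adjusted p = 0.0850), and 0.40 without the 2 farthest. The libraries share depth and scaling. Members were also set against total count, genes with a count, ribosomal RNA share, and the eye progenitor, furrow and photoreceptor, and antenna sums. These 54 relations were chosen after seeing the data, and their smallest permutation adjusted p was 0.243 for Pearson's r. The fat body and salivary gland sums were not among them.

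**Figure D5:**
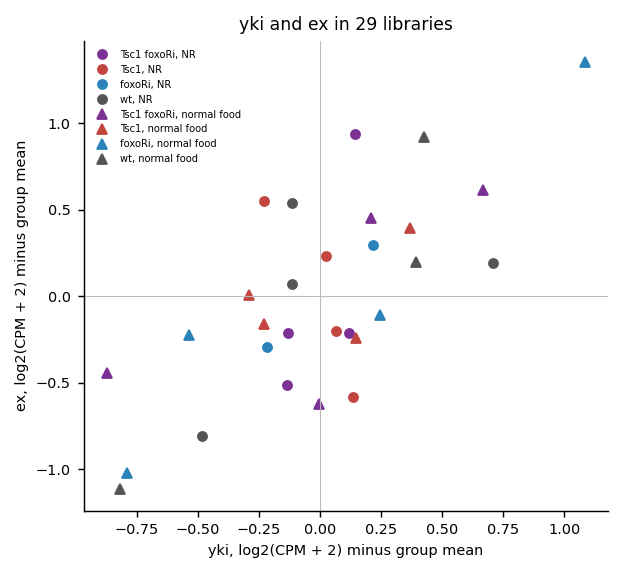
Deviation of log2(CPM + 2) from the group mean for yki (x axis) and ex (y axis), 1 point per library, with circles for NR and triangles for normal food. The points rise together over the 29 libraries, with r of 0.73.

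Among 11487 other protein-coding genes tested, the gene whose log2(CPM + 2) was most like ex over the 29 libraries was ASPP (r = 0.89), followed by ec (r = 0.82). For yki they were milt (r = 0.83) and CG11961 (r = 0.81), and for sd 1 of the 2 was mei-P26 (r = 0.80). For fj they were side-IV and drl, both with r of 0.73, for ft CG12581 (r = 0.72) and kis (r = 0.71), and for hpo CG7218 (r = 0.77) and Tcs5 (r = 0.74). For wts they were chif (r = 0.71) and jvl (r = 0.70) and for kibra CG18011 (r = 0.74) and CG31050 (r = 0.72). Mer had no gene above an r of 0.57, reached by Nf-YC, with Tbcc next at 0.55. These are the highest of many correlations and stand as a description.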

How the data were processed

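Single clones of about 50 cells were sequenced by the authors, 31 in all. The authors trimmed reads with Trimmomatic, mapped them to BDGP6 with STAR and made gene counts with featureCounts. The deposited values are expected counts (17.1% not whole) without normalization; how reads were shared and whether strand was used are not given in the sources used here. Of 17559 genes, 17253 matched the BDGP6.54 annotation, which gave names, positions and exon lengths; the unmatched took 7.24% to 9.41% of counts and stayed in the table.

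Rounded counts were fitted in R 4.3.3 by edgeR 4.0.16 (TMM, filterByExpr over the 8 groups, 1 quasi-likelihood fit of 29 libraries, Benjamini-Hochberg adjustment). The study used 29 libraries without naming them, and here the 2 with the fewest genes with a count were left out. The SE is the absolute log2 FC over the square root of F. CPM are scaled to TMM library sizes. Exact permutation tests served for single values, and 100000 permutations within groups for correlations. Nothing in the labels says that clones of a group came from separate larvae, so p-values measure the spread between clones. The test was checked on simulated counts. Members, lists and tests were chosen with earlier results of these data known. Named were the members, sav, mats, d, jub, Diap1, CycE, ban, myc, called genes of the lists, and the 2 genes most similar to each member, of which 1 is not reported here. Replicate numbers were not used to pair the libraries in the main fit. Alternatives covered normalization, filters, libraries, the replicate block, DESeq2 1.42.0, the groups in the fit and thresholds. Figures used Python 3.11.15 and matplotlib 3.10.9.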

Additional observations from a re-analysis of the deposited data

Results flagged for a closer look

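Of 54 groups of 4 libraries looked at, 5 held a value far from the other 3, where chance gives about 1 in 20. In replicate 3 of Tsc1 foxoRi under NR, ex was at 577 CPM and kibra at 52.1 CPM, each far above the other clones of the group. The same library had 2760 CPM of fat body markers. hpo was high in replicate 4 of Tsc1 on normal food, at 63.3 CPM, and in replicate 4 of foxoRi on normal food, at 54.4 CPM. sd was low in replicate 1 of Tsc1 foxoRi on normal food, at 103 CPM.

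Of 63 tests of a difference between effects, fj gave all 3 with an unadjusted p under 0.05, and none held after adjustment. The share of all genes with such a p ran from 5.17% to 14.9% over these differences. The knockdown effect on fj differed between NR and normal food by -1.39 on the log2 scale (SE 0.50, unadjusted p = 0.00947, edgeR adjusted p = 0.585). In the wt background that difference was -2.85 (edgeR adjusted p = 0.720). The Tsc1 effect in clones without knockdown differed between NR and normal food by -2.15 (edgeR adjusted p = 0.423).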

How the results depend on the processing

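None of the members' log2 FCs with an unadjusted p under 0.05, nor the called ones of Diap1, hth, myc and Hipk, changed sign under the alternatives; the averaged effect on myc, and Diap1 in Tsc1 foxoRi against Tsc1, were not run under them. Over all 162 member values, 32 changed sign with all 31 libraries and 3 to 16 under each other setting. Under DESeq2's Wald test 1 member, fj, was called in Tsc1 against wt under NR (adjusted p = 0.0883), in foxoRi against wt on normal food (adjusted p = 0.191), in the difference of the Tsc1 effect between foods without knockdown (adjusted p = 0.160), and in the difference of the knockdown effect between foods in the wt background (adjusted p = 0.0437). With only the 2 groups compared in the fit, 1 member, fj, was called in foxoRi against wt under NR (log2 FC -1.51, edgeR adjusted p = 0.163). Leaving out 1 library at a time gave 0 to 1 members called for Tsc1 against wt under NR and for the difference of the Tsc1 effect between foods without knockdown, and in both the 1 was fj without replicate 4 of Tsc1 under NR. At an adjusted p under 0.2 with no minimum fold, 2 members, yki and ft, passed in the averaged Tsc1 effect. Over the alternatives yki ranged from -0.68 to -0.49 there (adjusted p 0.0224 to 0.464) and ft from -0.35 to -0.22 (adjusted p 0.00524 to 0.388), with the highest p of both from all 31 libraries. Diap1 was called under all 37 alternatives for the averaged effect, with log2 FCs from -1.14 to -0.89. The calls of hth, myc and Hipk held in 31, 22 and 32 of 38 alternatives. The number of pairs of members with an adjusted p under 0.05 for Pearson's r was 1, against 3 when group means were not removed and 0 with all 31 libraries. Same-numbered libraries of different groups had a mean r of 0.03 over 92 pairs. Differently numbered ones had -0.01 over 274 pairs, and this difference was not tested. With the replicate block 0 members were called. Groups held 2 to 4 clones, and the common biological coefficient of variation over all genes was 0.86.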
